A study of Homo sapiens with 6 samples.

Results

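The genes described here are 10 transcriptional targets of the tumour suppressor p53: CDKN1A, GADD45A, BTG2, PLK3, SESN1, FAS, TNFRSF10B, MDM2, TP53I3 and ZMAT3. They were taken by name from an expression table of 12659 genes, and all 10 had a row in it. PolyA RNA was sequenced from NCI-H1650Re, the derivative that the labels place after transformation to small cell lung cancer (post-SCLC), and from NCI-H1650, the established human lung adenocarcinoma line that they place before it (pre-LUAD), with 3 libraries of each. The labels give no drug, dose, clone or culture history. They do not say whether replicates were grown apart, so the p-values below reflect the variation among these libraries alone, which may be technical.

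In normal cells p53 is kept low by MDM2, an E3 ubiquitin ligase whose own gene p53 switches on. DNA damage and other stresses stabilise p53, which binds paired copies of a short half-site near its target genes and raises genes that halt the cell cycle, repair DNA or start apoptosis. Several of these genes can also be raised without p53: GADD45A, SESN2, TNFRSF10B and GDF15 are known to respond to the integrated stress response, in which the transcription factor ATF4 is translated when amino acids run short or proteins misfold.

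The files show the level of these genes but no binding of p53 to them. RefSeq promoter windows (GRCh38.p14), which run from 250 bases before to 50 bases after a gene start, were at hand for 8 of the 10 genes; GADD45A and TNFRSF10B had none. The 8 genes had 16 windows between them, so a count of genes and a share of windows are not on the same scale. An adjoining pair of p53 half-sites with up to 2 mismatches was present in windows of 2 of the 8 genes, MDM2 and FAS. Of 35116 promoter windows of all genes, 0.649% had such a pair. A half-site with no mismatch was present in FAS and SESN1, and in 6.63% of all windows. The matches are printed 5′ to 3′ in capitals between 20 bases on either side, because they are the p53-type matches found among these genes, and that of DDB2, a DNA repair target with 1 mismatch, is set beside them as an example from another list. DDB2 and PCNA were the 2 of 10 repair targets with a window that held such a pair. On the plus strand, MDM2 is at chr12:68808903-68808962, FAS at chr10:88991289-88991348 and DDB2 at chr11:47214949-47215008; SESN1 is on the minus strand at chr6:109009008-109009057.
MDM2: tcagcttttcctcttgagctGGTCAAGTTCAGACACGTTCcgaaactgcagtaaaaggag
FAS: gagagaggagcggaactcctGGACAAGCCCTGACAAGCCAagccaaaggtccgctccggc
SESN1: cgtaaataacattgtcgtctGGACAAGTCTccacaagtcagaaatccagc
DDB2: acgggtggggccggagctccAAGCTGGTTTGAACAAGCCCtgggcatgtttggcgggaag
None of MDM2, FAS or DDB2 passed the test between lines described below, and SESN1 was too low to be tested. A match is a description of letters, not of a bound site, and other p53 sites of these genes can lie outside the windows.

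A RefSeq promoter window of PLK3 held the letters of the C/EBP-ATF response element, TGATGNAA, which was sought on both strands. ATF4 is known to bind this element. PLK3 was one of the 2 target genes that rose, and the part of the match in its level was not tested. Of the 8 genes, with 16 windows between them, only PLK3 had this element, and 3.62% of all windows had it. It is set beside the matches of ASNS, CHAC1 and ATF3, which are shown because they are the 3 of 9 integrated stress response genes described below whose windows held the element. The windows of the other 6 held none. PLK3 is at chr1:44800224-44800271, CHAC1 at chr15:40953242-40953289 and ATF3 at chr1:212565196-212565243, all on the plus strand, and ASNS is at chr7:97872449-97872496 on the minus strand. The CHAC1 match is read from the opposite strand.
PLK3: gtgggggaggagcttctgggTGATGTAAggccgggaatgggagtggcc
ASNS: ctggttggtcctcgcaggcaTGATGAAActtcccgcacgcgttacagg
CHAC1: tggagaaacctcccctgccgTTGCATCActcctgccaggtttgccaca
ATF3: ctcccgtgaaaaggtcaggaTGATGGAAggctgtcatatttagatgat

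Levels are in FPKM, fragment counts that the authors scaled by transcript length and library size, so that levels of different genes can be set side by side. Estimated depth was 18.7 to 22.2 M fragments in NCI-H1650Re libraries and 17.5 to 23.0 M fragments in NCI-H1650 libraries. A log2 change is the mean log2(FPKM + 1) of NCI-H1650Re minus that of NCI-H1650, a scale that understates the change of low genes. Changes were tested with limma over the 11764 genes that averaged 1 FPKM or more in one of the lines, at a Benjamini-Hochberg adjusted p of 0.05. In bulk RNA, fewer cells that express a gene and less RNA per cell cannot be told apart. Of the 7 epithelial markers all were present and 4 were lower in NCI-H1650Re, with summed levels of 3049 to 3085 FPKM in NCI-H1650Re and 3492 to 4627 FPKM in NCI-H1650. EPCAM, CDH1, KRT8 and KRT19 fell, by log2 changes of -0.50, -0.82, -0.46 and -3.59. KRT7 was higher in every NCI-H1650Re library but did not pass (log2 change 0.35, limma adjusted p = 0.0563), and for KRT18 (0.13) and CLDN4 (-0.26) the lines overlapped. Of 8 neuroendocrine markers, CHGA, SYP, DLL3 and UCHL1 had values, with summed levels of 10.2 to 13.3 FPKM in NCI-H1650Re and 6.27 to 8.40 FPKM in NCI-H1650, and CHGA rose; NEUROD1, INSM1 and NCAM1, which mark small cell tumours, had no row in the table. Fibroblast and endothelial markers were without a row except COL1A1, at 1.05 to 2.69 FPKM in NCI-H1650Re and 0.98 to 1.05 FPKM in NCI-H1650. Of 5 leukocyte markers only the B-cell receptor component CD79A had values, 204 to 236 FPKM in NCI-H1650Re and 203 to 207 FPKM in NCI-H1650.

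Of the 10 p53 targets, 9 were tested, and 2 rose in NCI-H1650Re, GADD45A and PLK3. None fell, and 7 did not pass. Of all tested genes 30.5% passed: 16.6% of the tested genes rose and 13.9% fell. In the authors' deposited table, 2 of the 10 genes, GADD45A and PLK3, had an FDR under 0.05, against 27.9% of its genes. PLK3 entered the test only through its level in NCI-H1650Re, and SESN1 was left out because its mean was under 1 FPKM in both lines. The median log2 change of the 9 tested genes was 0.06, against 0.03 for all tested genes. Of the 9 log2 changes, 5 were positive and 4 negative.

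**Figure D1:**
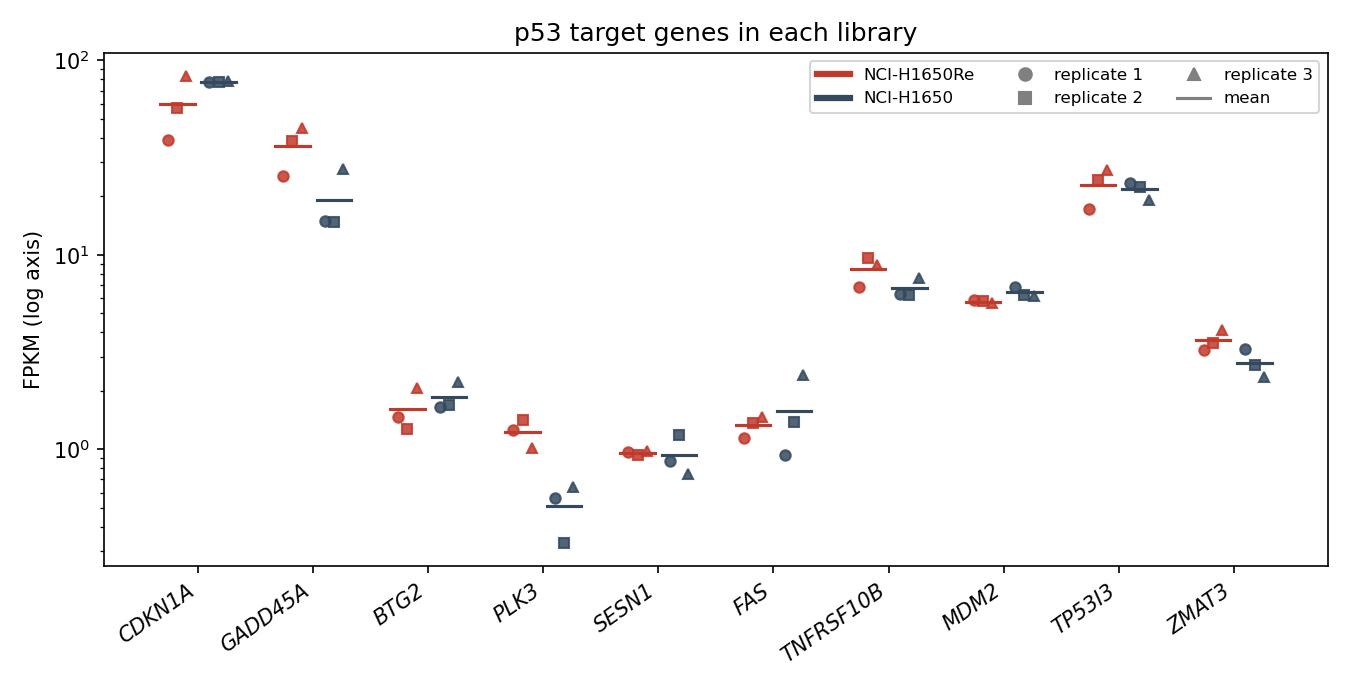
Level of each of the 10 p53 target genes in FPKM (log axis) in the 3 libraries of NCI-H1650Re (red, left) and the 3 of NCI-H1650 (dark, right), with a line at each mean. The lines do not overlap for PLK3, which is higher in NCI-H1650Re, and for MDM2, which is lower; CDKN1A spans 38.95 to 82.8 FPKM in NCI-H1650Re and 77.4 to 78.2 FPKM in NCI-H1650.

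The arrest genes include the highest member and the 2 that changed. CDKN1A encodes p21, the inhibitor of cyclin-dependent kinases through which p53 halts the cell in G1. It was at 38.95, 56.9 and 82.8 FPKM in NCI-H1650Re replicates 1, 2 and 3, and at 77.4, 77.7 and 78.2 FPKM in those of NCI-H1650. The NCI-H1650 libraries were nearly equal, whereas in NCI-H1650Re replicates 1 and 2 lay below all of them and replicate 3 lay above. The highest NCI-H1650Re library had 2.13 times the level of the lowest, against 1.01 times in NCI-H1650. Its mean was 59.5 ± 22.0 FPKM in NCI-H1650Re and 77.8 ± 0.410 FPKM in NCI-H1650 (SD, n = 3 each), and the log2 change of -0.45 did not pass (95% interval -0.98 to 0.09, limma adjusted p = 0.176).

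The result for CDKN1A turned on NCI-H1650Re replicate 3. Without that library the log2 change was -0.71 and CDKN1A passed as lower (limma adjusted p = 0.00715), in a fit where 38.1% of all genes passed. Without the replicate 3 libraries of both lines it was also -0.71 (limma adjusted p = 0.00888), in a fit where 43.2% of all genes passed. Without NCI-H1650Re replicate 1 it was -0.18 (limma adjusted p = 0.401). CDKN1A lies at chr6:36676460-36687339 (GRCh38, GENCODE release 29). The 24 nearest tested genes had a median log2 change of -0.28, against 0.03 for all tested genes. Of the 24, 0 rose and 3 fell, against 16.6% and 13.9% of all tested genes. Their part in the CDKN1A value was not tested.

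GADD45A encodes a small stress protein that binds PCNA, p21 and cyclin-dependent kinase 1 and slows entry into mitosis. The gene lies at chr1:67685061-67688338. It was at 25.54, 38.55 and 44.9 FPKM in NCI-H1650Re replicates 1, 2 and 3, and at 14.9, 14.7 and 27.8 FPKM in those of NCI-H1650. The lines overlapped, since NCI-H1650 replicate 3 was above NCI-H1650Re replicate 1. The mean was 36.3 ± 9.87 FPKM in NCI-H1650Re and 19.1 ± 7.47 FPKM in NCI-H1650 (SD, n = 3 each), a ratio of 1.90. GADD45A rose by 0.91 on the log2 scale (SE 0.27, 95% interval 0.28 to 1.55, limma adjusted p = 0.0395), and the size of its change was at the 96.0th percentile of all tested genes. The spread between its replicates was at the 97.9th percentile, and GADD45A no longer passed when replicate 2 (limma adjusted p = 0.123) or 3 (0.0709) of NCI-H1650Re, or replicate 1 (0.126) or 2 (0.134) of NCI-H1650, was left out.

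PLK3 encodes a polo-like kinase that is activated by genotoxic and oxidative stress and can phosphorylate p53. The gene lies at chr1:44800225-44805990, and another gene, TCTEX1D4, overlaps it. It was at 1.26, 1.41 and 1.02 FPKM in NCI-H1650Re replicates 1, 2 and 3, and at 0.56, 0.33 and 0.64 FPKM in those of NCI-H1650. Every NCI-H1650Re library was above every NCI-H1650 library. PLK3 rose by 0.56 on the log2 scale (SE 0.13, 95% interval 0.27 to 0.86, limma adjusted p = 0.0137), and the ratio of its means was 2.41. Its level was at percentile 0.820 of the tested genes and rested on 64, 76 and 46 counts in NCI-H1650Re replicates 1, 2 and 3 against 31, 16 and 27 counts in those of NCI-H1650. It was the only one of the 10 genes that the authors marked as regulated, against 6.79% of all genes in their table, with a log2 fold change of 1.25 and an FDR of 0.00117 in the authors' deposited table. It no longer passed in limma when replicate 2 of NCI-H1650Re (adjusted p = 0.0647) or of NCI-H1650 (0.0584) was left out.

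BTG2, an antiproliferative factor that recruits the CCR4-NOT deadenylase to mRNAs, was at 1.47, 1.28 and 2.06 FPKM in NCI-H1650Re and at 1.65, 1.69 and 2.21 FPKM in NCI-H1650. Replicate 3 was the highest library of both lines, and the lines overlapped. Its log2 change was -0.14 (95% interval -0.46 to 0.18, limma adjusted p = 0.481). SESN1, a sestrin that holds back mTORC1, was at 0.97, 0.94 and 0.98 FPKM in NCI-H1650Re and at 0.87, 1.18 and 0.75 FPKM in NCI-H1650. The NCI-H1650Re values lay inside the range of NCI-H1650, and with no filter on low genes the log2 change was 0.03 (limma adjusted p = 0.849).

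The death receptors differed in level and did not pass. FAS, the receptor of Fas ligand, was at 1.15, 1.37 and 1.47 FPKM in NCI-H1650Re and at 0.94, 1.39 and 2.41 FPKM in NCI-H1650. The NCI-H1650 libraries spread 2.56-fold around those of NCI-H1650Re, and the log2 change was -0.11 (95% interval -0.56 to 0.34, limma adjusted p = 0.698). TNFRSF10B encodes DR5, a receptor of the death ligand TRAIL. It was at 6.85, 9.59 and 8.85 FPKM in NCI-H1650Re and at 6.26, 6.24 and 7.65 FPKM in NCI-H1650. NCI-H1650Re replicate 1 fell between the NCI-H1650 libraries and the other two were above them. Its log2 change was 0.28 (95% interval -0.01 to 0.58, limma adjusted p = 0.131), and without NCI-H1650Re replicate 1 it was 0.41 and passed (limma adjusted p = 0.0313). The 24 tested genes nearest to TNFRSF10B on chromosome 8 had a median log2 change of 0.15, and 9 of them rose and 4 fell, against 16.6% and 13.9% of all tested genes; their part in its value was not tested.

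MDM2 was at 5.87, 5.77 and 5.63 FPKM in NCI-H1650Re and at 6.86, 6.20 and 6.16 FPKM in NCI-H1650. All NCI-H1650Re libraries were below all NCI-H1650 libraries, but by little. The log2 change was -0.13 (SE 0.07, 95% interval -0.30 to 0.04, limma adjusted p = 0.202), and the exact permutation p, two-sided, was 0.1, the smallest that 3 libraries against 3 can give. For the 2 targets that passed in limma, the exact permutation p was 0.1 for PLK3 and 0.2 for GADD45A. MDM2 and PLK3 were the 2 of 9 tested target genes whose lines did not overlap, against 47.2% of all tested genes; 26.3% of all tested genes had every NCI-H1650Re library above, as PLK3 had, and 21% every one below, as MDM2 had. The spread between replicates of MDM2 was the least of the 9 tested targets. CPM overlaps MDM2, as RHOBTB2 overlaps TNFRSF10B, and both had a row of their own. Since nothing says that reads were counted by strand, reads of such neighbours cannot be told apart.

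TP53I3 encodes a quinone oxidoreductase-like enzyme linked to reactive oxygen and p53-driven apoptosis. It was at 17.29, 24.36 and 27.16 FPKM in NCI-H1650Re and at 23.45, 22.43 and 19.26 FPKM in NCI-H1650. The NCI-H1650Re libraries surrounded those of NCI-H1650, and the log2 change was 0.06 (95% interval -0.31 to 0.43, limma adjusted p = 0.809). ZMAT3, a zinc finger protein that binds RNA and regulates splicing downstream of p53, was at 3.24, 3.54 and 4.12 FPKM in NCI-H1650Re and at 3.30, 2.73 and 2.35 FPKM in NCI-H1650. The lines overlapped in one library each. Its log2 change of 0.29 had a 95% interval of 0.02 to 0.57 before adjustment over genes, and did not pass after it (limma adjusted p = 0.10).

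**Figure D2:**
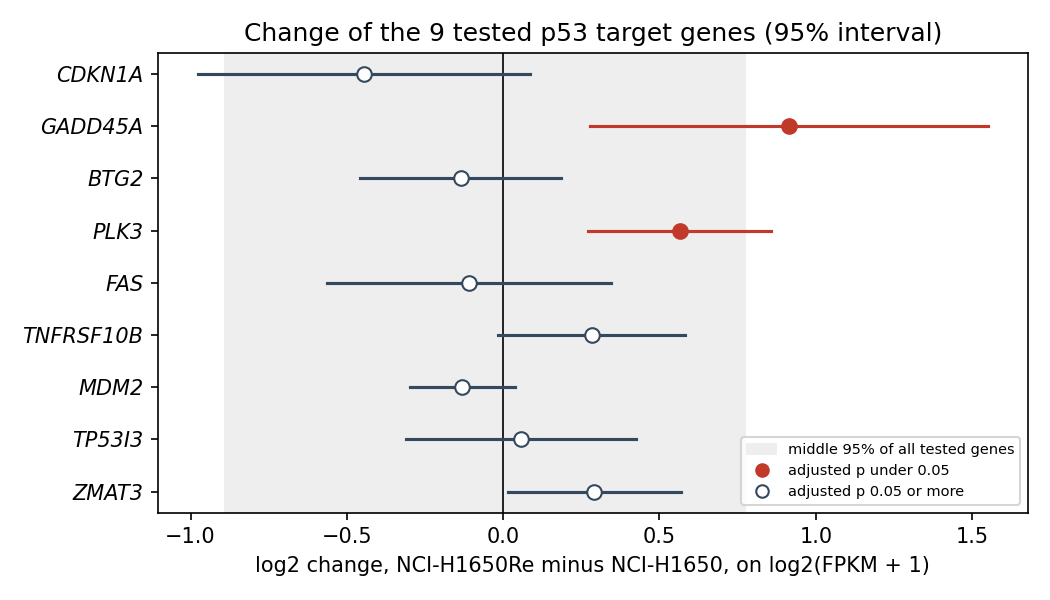
Log2 change of the 9 tested p53 target genes (mean log2(FPKM + 1) of NCI-H1650Re less that of NCI-H1650), with 95% limma intervals; filled points passed an adjusted p of 0.05, and the grey band holds the middle 95% of all tested genes, from -0.89 to 0.78. GADD45A, at 0.91, lies just outside the band and the other 8 lie inside it.

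In order of mean level, CDKN1A stood first in both lines. GADD45A, TP53I3, TNFRSF10B, MDM2, ZMAT3, BTG2, FAS, PLK3 and SESN1 followed it in NCI-H1650Re. The order in NCI-H1650 differed at 2 places, where TP53I3 stood above GADD45A and SESN1 above PLK3. Counting neighbours as apart when their means differed by more than the sum of their SDs, GADD45A was not apart from CDKN1A above it or TP53I3 below it in NCI-H1650Re, nor was FAS from BTG2 above it or PLK3 below it. In NCI-H1650, CDKN1A stood 56.1 FPKM above its neighbour TP53I3, whereas TP53I3 was not apart from GADD45A, TNFRSF10B from MDM2, or FAS from BTG2 and SESN1. TNFRSF10B exceeded MDM2 by 2.67 FPKM in NCI-H1650Re, beyond their spread, and by 0.31 FPKM in NCI-H1650, within it.

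**Figure D3:**
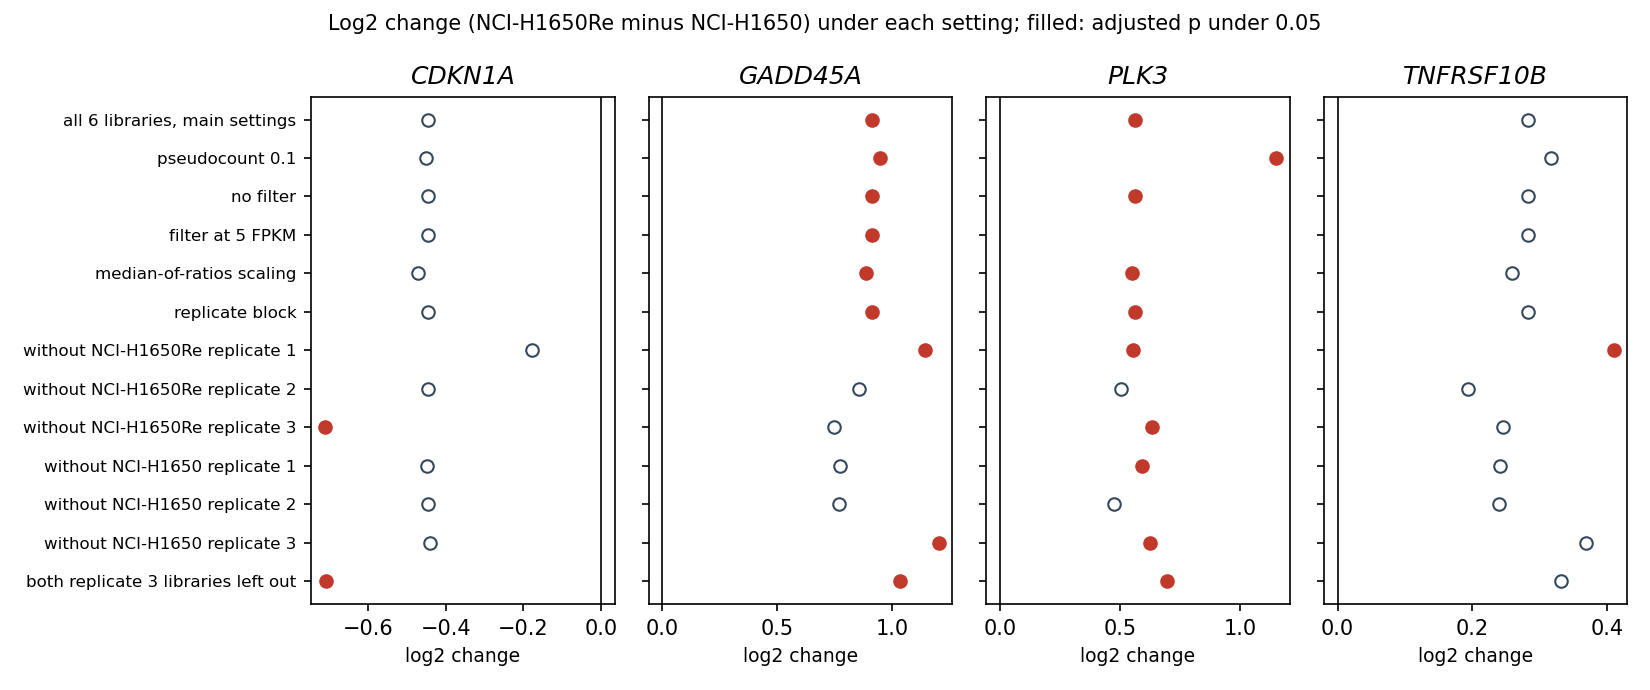
Log2 change of CDKN1A, GADD45A, PLK3 and TNFRSF10B (the NCI-H1650Re level less that of NCI-H1650; each panel has its own axis) under the main settings and 12 others; filled points passed a limma adjusted p of 0.05, and PLK3 has no value where genes under 5 FPKM were left out. GADD45A lost its call without any 1 of 4 libraries, PLK3 without any 1 of 2, and CDKN1A gained one without NCI-H1650Re replicate 3.

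The other genes of the pathway were taken from 5 lists of p53 regulators and further targets, which held 101 genes; 87 had a row and 85 were tested. Of these, 15 rose and 10 fell, 29.4% in all, next to 30.5% of all tested genes. Their median log2 change was 0.05, against 0.03 for all tested genes, and the median size of a change was 0.19 on the log2 scale for both. The count of passing genes was 15 without NCI-H1650Re replicate 2, 13 without NCI-H1650 replicate 2 and 41 without the replicate 3 libraries of both lines. The counts of single lists below stand beside 16.6% of all tested genes that rose and 13.9% that fell.

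Among 21 tested members of the p53 family and its regulators, 2 rose, none fell and 19 did not pass. CHEK2, a kinase that relays DNA breaks to p53, rose to 12.8 ± 0.553 FPKM in NCI-H1650Re, against 9.43 ± 0.764 FPKM in NCI-H1650 (log2 change 0.41, limma adjusted p = 0.00795). TP53BP2, which encodes the p53-binding protein ASPP2, rose to 13.9 ± 0.408 FPKM in NCI-H1650Re, against 10.7 ± 0.645 FPKM in NCI-H1650 (log2 change 0.35, limma adjusted p = 0.0089), and missed the threshold when NCI-H1650 replicate 2 was left out (0.0508). PPP1R13L, which encodes the inhibitory iASPP, was at 39.7 ± 3.13 FPKM in NCI-H1650Re and 34.8 ± 1.87 FPKM in NCI-H1650, and the deubiquitinase gene USP7 at 26.9 ± 2.73 FPKM in NCI-H1650Re and 24.7 ± 2.31 FPKM in NCI-H1650; neither passed (limma adjusted p = 0.117 and 0.389).

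Of 17 other targets in cell cycle arrest and growth control, 3 rose, 5 fell and 9 did not pass. SESN2, a sestrin like SESN1, rose to 13.9 ± 3.22 FPKM in NCI-H1650Re, against 4.35 ± 0.602 FPKM in NCI-H1650 (log2 change 1.46, limma adjusted p = 0.00105). KLF4, a zinc finger factor that can raise CDKN1A, was at 17.0 ± 4.50 FPKM in NCI-H1650Re, against 6.55 ± 3.72 FPKM in NCI-H1650, and rose (limma adjusted p = 0.0172), but did not pass when NCI-H1650Re replicate 2 (limma adjusted p = 0.0568), or replicate 1 (0.0638) or 2 (0.0657) of NCI-H1650, was left out. NDRG1, which hypoxia also raises, fell to 31.5 ± 7.92 FPKM in NCI-H1650Re, against 65.9 ± 5.12 FPKM in NCI-H1650 (log2 change -1.07, limma adjusted p = 0.00426). SFN, the 14-3-3 sigma gene of epithelial cells, fell to 225 ± 7.48 FPKM in NCI-H1650Re, against 373 ± 70.6 FPKM in NCI-H1650 (log2 change -0.71, limma adjusted p = 0.00574). DDIT4, an inhibitor of mTORC1, was at 166 ± 49.4 FPKM in NCI-H1650Re and 214 ± 14.6 FPKM in NCI-H1650, and NINJ1, a membrane rupture protein, at 30.7 ± 7.71 FPKM in NCI-H1650Re and 33.6 ± 2.94 FPKM in NCI-H1650; without NCI-H1650Re replicate 3 both passed as lower (limma adjusted p = 0.00393 and 0.0481).

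Of 18 tested apoptosis and death receptor targets, 6 rose, 2 fell and 10 did not pass. TP53I11 rose to 13.1 ± 2.08 FPKM in NCI-H1650Re, against 7.64 ± 0.774 FPKM in NCI-H1650 (log2 change 0.70, limma adjusted p = 0.00507). TNFRSF10A, the other TRAIL death receptor beside TNFRSF10B, rose to 5.47 ± 0.465 FPKM in NCI-H1650Re, against 3.25 ± 0.159 FPKM in NCI-H1650 (log2 change 0.61, limma adjusted p = 0.00228). PERP, a p53 target that is also a component of desmosomes, fell to 49.2 ± 4.66 FPKM in NCI-H1650Re, against 101 ± 3.82 FPKM in NCI-H1650 (log2 change -1.02, limma adjusted p = 0.000348). BCL6, a transcriptional repressor, fell to 2.62 ± 1.38 FPKM in NCI-H1650Re, against 5.93 ± 0.796 FPKM in NCI-H1650 (limma adjusted p = 0.0181), but did not pass when NCI-H1650Re replicate 2 (limma adjusted p = 0.0696), or replicate 2 (0.0589) or 3 (0.0567) of NCI-H1650, was left out. EI24 was at 126 ± 7.90 FPKM in NCI-H1650Re and 135 ± 11.4 FPKM in NCI-H1650, and TRIAP1 at 17.5 ± 0.755 FPKM in NCI-H1650Re and 18.5 ± 1.31 FPKM in NCI-H1650; neither passed.

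DNA repair targets had 2 rises and no fall among 11. REV3L, the catalytic subunit of the translesion polymerase zeta, rose to 3.77 ± 0.323 FPKM in NCI-H1650Re, against 2.66 ± 0.0961 FPKM in NCI-H1650 (log2 change 0.38, limma adjusted p = 0.0135), and missed the threshold without NCI-H1650 replicate 2 (0.0646). RRM2B, the p53-inducible ribonucleotide reductase subunit, was at 6.94 ± 0.241 FPKM in NCI-H1650Re and 5.79 ± 0.239 FPKM in NCI-H1650 and passed narrowly (limma adjusted p = 0.0432), but not with median-of-ratios scaling (0.0549), with no filter (0.0518), without any 1 library except NCI-H1650Re replicate 3, or without both replicate 3 libraries (0.0508). DDB2, the damage-recognition gene whose promoter match is printed above, was at 23.5, 21.2 and 16.1 FPKM in NCI-H1650Re and at 17.3, 16.4 and 17.5 FPKM in NCI-H1650. It did not pass (log2 change 0.22, limma adjusted p = 0.221), but passed as higher without NCI-H1650Re replicate 3 (0.00882) or both replicate 3 libraries (0.00797). PCNA, the replication clamp, was at 143 ± 11.4 FPKM in NCI-H1650Re and 154 ± 5.37 FPKM in NCI-H1650 and did not pass.

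Of 18 tested metabolic and secreted targets, 2 rose, 3 fell and 13 did not pass. GDF15, a stress-induced cytokine, was at 26.9, 34.2 and 32.1 FPKM in NCI-H1650Re and at 1.38, 1.03 and 4.56 FPKM in NCI-H1650. Its log2 change of 3.41 was the largest among the p53 target lists (limma adjusted p = 0.000721). FUCA1, the lysosomal fucosidase, rose to 13.0 ± 0.618 FPKM in NCI-H1650Re, against 8.33 ± 1.66 FPKM in NCI-H1650 (log2 change 0.60, limma adjusted p = 0.0114). The tetraspanin gene CD82 fell to 12.4 ± 2.87 FPKM in NCI-H1650Re, against 23.1 ± 5.53 FPKM in NCI-H1650, and missed the threshold without replicate 2 of NCI-H1650Re (limma adjusted p = 0.0650) or of NCI-H1650 (0.0652). KITLG, the ligand of the receptor KIT, fell to 3.69 ± 1.15 FPKM in NCI-H1650Re, against 6.15 ± 0.455 FPKM in NCI-H1650, and missed it without NCI-H1650Re replicate 2 (limma adjusted p = 0.0505) or any 1 NCI-H1650 library (0.0776 to 0.0829). GPX1, a glutathione peroxidase, was at 167 ± 12.2 FPKM in NCI-H1650Re and 143 ± 20.9 FPKM in NCI-H1650, and THBS1, the adhesive glycoprotein thrombospondin, at 76.8 ± 21.6 FPKM in NCI-H1650Re and 68.4 ± 15.2 FPKM in NCI-H1650; neither passed.

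**Figure D4:**
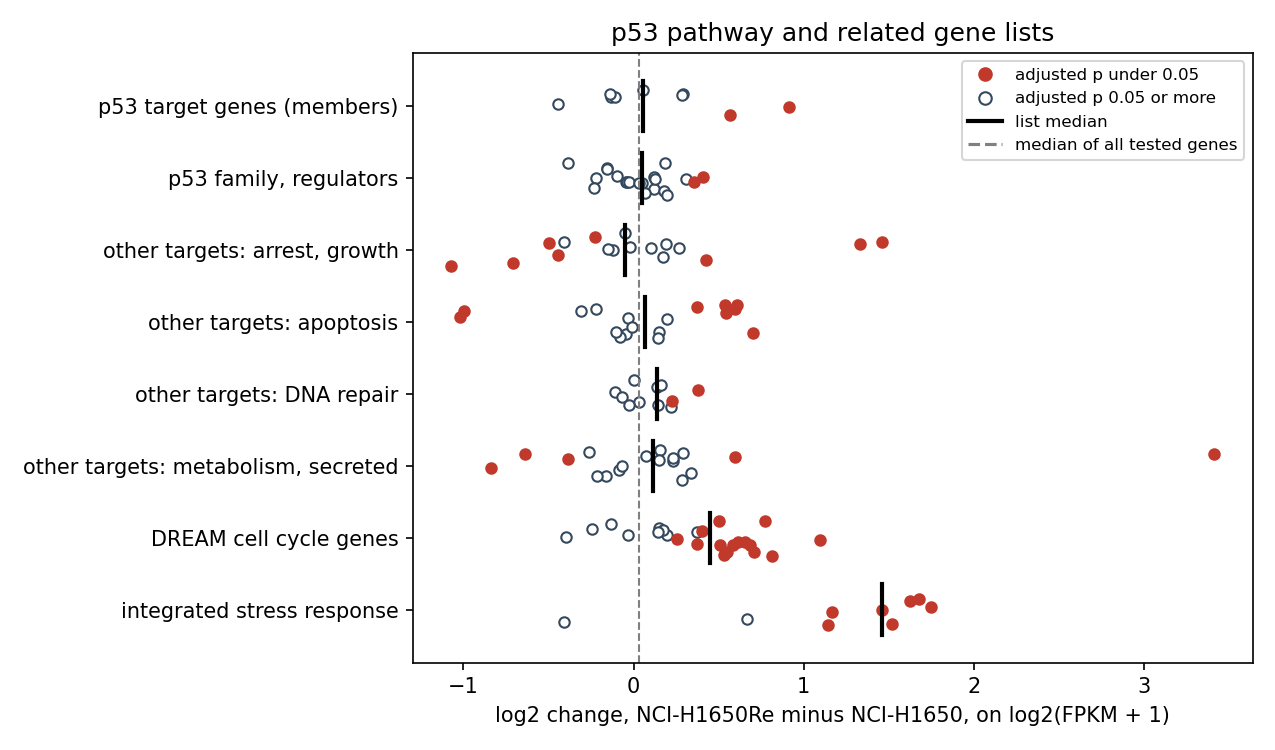
Log2 change of each tested gene (mean log2(FPKM + 1) of NCI-H1650Re less that of NCI-H1650) in the p53 target genes described here, 5 lists of regulators and other targets, the DREAM cell cycle list and the integrated stress response list; filled points passed an adjusted p of 0.05, bars are list medians and the dashed line is the median of all tested genes, 0.03. The first 6 rows scatter to both sides of the line, and the last 2 lie mostly above it, with medians of 0.45 and 1.46.

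When p53 raises p21, the DREAM complex is known to repress a set of cell cycle genes, so this set was read beside CDKN1A. Of its 24 genes 15 rose, none fell and 9 did not pass, with a median log2 change of 0.45. Among all tested genes 16.6% rose and 13.9% fell. CDC20, an activator of the anaphase-promoting complex, rose to 159 ± 35.1 FPKM in NCI-H1650Re, against 72.5 ± 3.90 FPKM in NCI-H1650. CCNB1, encoding cyclin B1, rose to 116 ± 14.9 FPKM in NCI-H1650Re, against 70.8 ± 8.42 FPKM in NCI-H1650 (log2 change 0.71, limma adjusted p = 0.00459). The mitotic kinase genes AURKA and BUB1 rose too, by log2 changes of 0.81 and 0.77. The kinase gene PLK1 was at 82.2 ± 10.7 FPKM in NCI-H1650Re and 97.0 ± 7.92 FPKM in NCI-H1650, and the proliferation marker MKI67 at 69.1 ± 12.9 FPKM in NCI-H1650Re and 61.8 ± 5.81 FPKM in NCI-H1650; neither passed, though PLK1 passed as lower without NCI-H1650Re replicate 1 (limma adjusted p = 0.0444). The summed level of the 24 genes was 1751, 1578 and 1374 FPKM in NCI-H1650Re replicates 1, 2 and 3, and 1241, 1171 and 1060 FPKM in those of NCI-H1650. In both lines replicate 1 had the highest sum and replicate 3 the lowest. CDKN1A was lowest in replicate 1 and highest in replicate 3 of NCI-H1650Re, but nearly level in NCI-H1650, and a relation between CDKN1A and this sum was not tested. The count of rises was 9 without NCI-H1650Re replicate 2 and 10 to 17 without any other single library.

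Integrated stress response genes were read beside GADD45A and PLK3. Of 9 tested, 7 rose, none fell and 2 did not pass, against 16.6% of all tested genes that rose and 13.9% that fell. The median log2 change of the 9 was 1.46. SESN2 and DDIT4 belong to this list and to that of arrest genes. ATF4, singled out as the factor that drives the response, was at 212, 235 and 234 FPKM in NCI-H1650Re and at 103, 101 and 103 FPKM in NCI-H1650. TRIB3, a pseudokinase raised by ATF4, was at 51.0, 71.6 and 80.3 FPKM in NCI-H1650Re and at 17.4, 17.2 and 26.9 FPKM in NCI-H1650. CHAC1, ASNS and PSAT1, which act in glutathione breakdown, asparagine synthesis and serine synthesis, rose by log2 changes of 1.75, 1.52 and 1.63. ATF3, which both p53 and ATF4 can raise, was at 13.9, 17.8 and 27.6 FPKM in NCI-H1650Re and at 9.28, 8.79 and 18.9 FPKM in NCI-H1650, and did not pass (limma adjusted p = 0.145). It passed as higher when NCI-H1650 replicate 3 (0.0311) or both replicate 3 libraries (0.0021) were left out.

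Within each line, GADD45A, KLF4, ATF3 and TRIB3 were highest in replicate 3, as was TNFRSF10B in NCI-H1650. In NCI-H1650Re replicate 1 all 5 were at the lowest level of their line. CDKN1A and DDIT4 were also lowest in NCI-H1650Re replicate 1 and highest in NCI-H1650Re replicate 3, while in NCI-H1650 CDKN1A was nearly level and DDIT4 was lowest in replicate 3. PLK3 did not share this order, being lowest in replicate 3 of NCI-H1650Re. ATF4, GDF15 and TNFRSF10B were highest in replicate 2 of NCI-H1650Re, and ATF4 was nearly level in NCI-H1650. The labels do not say what differed between the replicates. The part of these genes in the GADD45A and CDKN1A values was not tested.

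**Figure D5:**
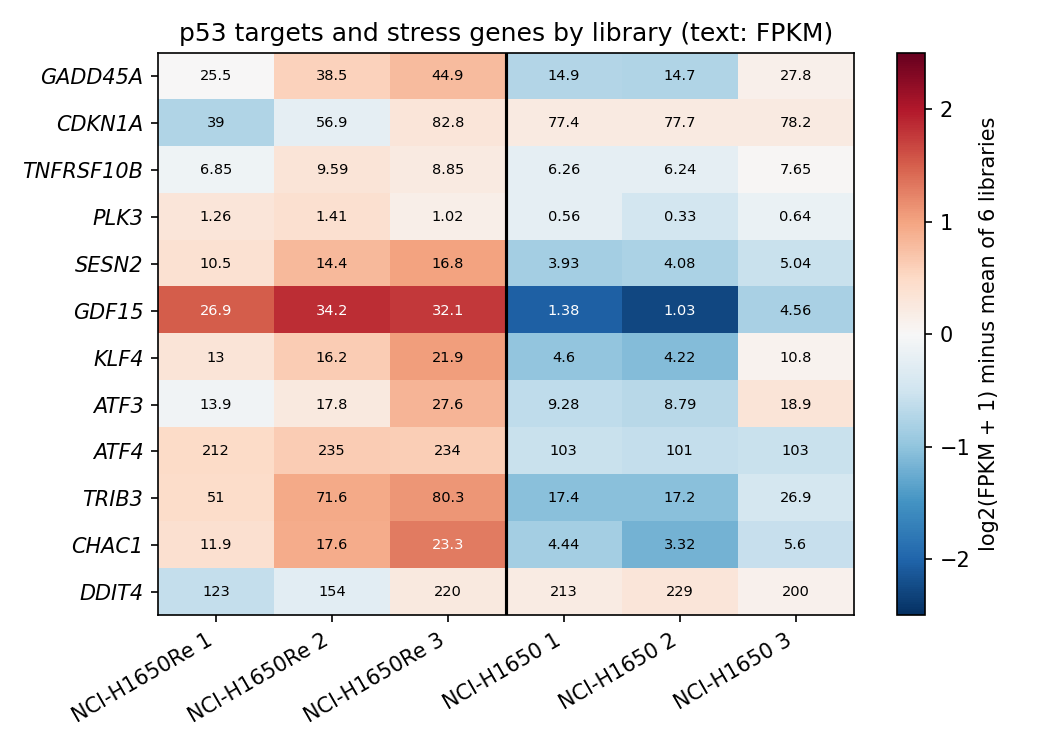
Level of 4 p53 target genes described here and 8 related genes in the 3 NCI-H1650Re libraries (left) and the 3 NCI-H1650 libraries (right); colour is log2(FPKM + 1) minus the mean of the 6 libraries, and the printed values are FPKM. GADD45A at 44.9 FPKM and CDKN1A at 82.8 FPKM are highest in NCI-H1650Re replicate 3, where TRIB3 at 80.3 FPKM is also highest.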

How the data were processed

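FPKM of 12659 genes in 6 libraries, with a log2 fold change and an FDR (an adjusted p-value) per gene, were computed and deposited by the authors. For the 860 genes that the authors marked as regulated, of the targets PLK3 alone, whole-number counts were deposited as well. HISAT2, Bowtie2, RSEM and DESeq2 are named without versions in the submitters' processing notes, with mouse mm10 as the build; all identifiers are human. No source used here gives the annotation, strand handling or table filter.

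FPKM were used as deposited. The 11764 genes averaging 1 FPKM or more in one of the lines were fitted with limma 3.58.1 (R 4.3.3, variance trend, line as only term) on log2(FPKM + 1), with Benjamini-Hochberg adjustment over all of them. The fit was also run on simulated data, with noise drawn independently for each library, so that run does not bear on the calls made here. Alternatives were median-of-ratios scaling, a replicate block, a pseudocount of 0.1, keeping all genes or those over 5 FPKM, each library left out, and both replicate 3 libraries left out. Depth was estimated from counts and FPKM of marked genes (244 for ratios, 19 with 1 transcript for level). Replicate numbers were not taken as pairs in the main fit. Positions came from GENCODE release 29. Members and lists were chosen with earlier results of these data known. Beside the members, up to 4 passing genes with the largest change and up to 2 others with the highest level were named per list; ATF4, CHGA, the epithelial markers, COL1A1 and CD79A were added. Some genes of the lists are not reported here. Tables were handled with Python 3.11.15, pandas 2.3.3 and matplotlib 3.10.9.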

Additional observations from a re-analysis of the deposited data

How the results depend on the processing

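The number of libraries, 6, limits the precision, and how far depth limits the 9 targets without counts was not tested. The count of targets that passed, 2 with all 6 libraries, was 1 among genes of at least 5 FPKM, where PLK3 was not tested, and 0 to 3 when single libraries were left out. The counts over all genes ran from 1785 to 4478 and those of the other pathway genes from 13 to 34 when single libraries were left out, against 3587 and 25; without both replicate 3 libraries 41 pathway genes passed, and the cause was not tested. The share of rises among all calls was 54.4%, and 49.2% with median-of-ratios scaling. With a replicate block the 2 targets still passed (GADD45A at a limma adjusted p of 0.00861) and 3522 genes in all did, against 3587. Same-numbered libraries of the lines correlated in their deviations by 0.173, -0.0369 and 0.211, and differently numbered ones by -0.259 to 0.23. The labels do not say whether equal numbers mark pairs, and the main fit did not take them as pairs. Of 49 genes, 28 kept their direction and their side of the threshold under each of the 12 alternatives that gave them a value; FAS, BTG2, PLK3, ZMAT3, REV3L and CHGA had none at 5 FPKM. Only genes that did not pass changed sign. With single libraries left out, the log2 change ran from -0.0721 to 0.24 for TP53I3, from -0.30 to 0.11 for FAS, from -0.33 to 0.0128 for NINJ1 and from -0.0259 to 0.39 for THBS1. Without both replicate 3 libraries it was -0.15 for TP53I3, 0.0681 for FAS and -0.16 for THBS1. SESN1, at 0.0283 with no filter, was tested in only 2 other settings, at -0.0404 without NCI-H1650 replicate 3 and -0.0466 without both. With the block, ATF3 and GPX1 passed as higher and PLK1 as lower, and RRM2B no longer passed; it changed no other call among the genes named.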
